A study of Homo sapiens with 10 samples.

Results

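The 45 genes described here encode parts of the lysosome and of the autophagy machinery, taken as a named list of symbols from a table of 58174 genes measured by RNA sequencing. All 45 symbols were found in the table, and 44 of them had a mean of at least 1 TPM (a gene's share of all transcripts, corrected for its length and scaled to a fixed total) over the 10 libraries, as did 17118 genes in all, and could be tested. The gene below that level was CTSZ, a cathepsin, which averaged 0.517 TPM and stayed between 0.21 and 1.08 TPM in each library. By role, the list held 5 lysosomal membrane proteins, 6 cathepsins, 5 glycosidases, 2 proteins of lipid handling, 2 transcription factors, 6 V-ATPase genes, 7 genes of autophagy initiation, 6 of the conjugation machinery, 4 of the ATG8 family, and 2 for fusion and cargo.

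All libraries came from SH-SY5Y, a human neuroblastoma cell line with noradrenergic neuron-like features. In the siRNA experiment, 3 siTDP-43 libraries (cells given an ON-TARGETplus pool of small interfering RNAs against TARDBP, the gene of the RNA-binding protein TDP-43) were set against 3 siControl libraries (a pool of control siRNAs), with RNAiMAX as the carrier, a final 50 nM of siRNA and 96 hours of treatment in either case. In the genome-editing experiment, 2 libraries of cells homozygous for the TDP-43 substitution N352S were set against 2 libraries of wild type cells of the same series, whose labels give a genotype and no siRNA. The design text speaks of biological replicates but names no culture or clone behind a library, so the p-values below cover only how far libraries of a group differ, which may be technical. An effect of N352S cannot be told apart from a difference between the edited cells and the wild type cells that has another origin. In bulk RNA a smaller share of a transcript also cannot be told apart from fewer cells that hold it.

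Lysosomes are acidic organelles in which hydrolases such as cathepsins and glycosidases break down proteins, sugars and lipids. The V-ATPase pumps protons into them, and membrane proteins such as LAMP1 and LAMP2 line them. In autophagy, a kinase complex around ULK1 or ULK2 and a lipid kinase complex around PIK3C3 and BECN1 start a double membrane, a conjugation machinery attaches ATG8 family proteins to it, receptors such as NBR1 bring cargo, and RAB7A helps the closed vesicle to fuse with the lysosome. Many of these genes can be switched on together by TFEB and TFE3, which bind the E-box element TCACGTGA in their promoters, and neurons rely on the pathway to clear proteins and organelles from long processes.

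To show which of the 45 promoters carry the E-box, RefSeq promoters (GRCh38.p14, 250 bases before to 50 bases after each start) were searched for TCACGTGA, which reads the same on both strands. Of the 38 genes with a promoter in the table, 6 held it (15.8%), against 10 of 108 other lysosome and autophagy genes (9.3%) and 321 of all 27305 genes (1.18%), or 344 of all 35116 promoters of that length (0.98%). The shorter core CACGTG, which every copy of the longer element contains, was in 9 of the 38 (23.7%) and in 8.77% of all genes. The stretches around the copies are given below 5′ to 3′ on the gene's own strand, and capitals mark the element. They stop at or before the start site, except in LAMP1 and ATG3, where a copy runs across or lies behind it.
LAMP1: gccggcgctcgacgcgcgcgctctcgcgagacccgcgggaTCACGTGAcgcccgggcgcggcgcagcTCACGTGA
MCOLN1: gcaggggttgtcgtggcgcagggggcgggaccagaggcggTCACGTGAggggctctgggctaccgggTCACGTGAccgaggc
CTSA: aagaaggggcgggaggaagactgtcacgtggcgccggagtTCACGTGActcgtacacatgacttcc
GAA: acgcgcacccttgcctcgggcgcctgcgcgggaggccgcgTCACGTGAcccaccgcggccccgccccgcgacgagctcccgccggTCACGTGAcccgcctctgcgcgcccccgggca
ATP6V0D1: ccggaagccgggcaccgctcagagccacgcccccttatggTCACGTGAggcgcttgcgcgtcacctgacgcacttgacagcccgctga
ATG3: agagtctagtgTCACGTGAggccccggtgg
These lie at chr13:113297170-113297244 (plus strand) for LAMP1, chr19:7522542-7522623 (plus) for MCOLN1, chr20:45891269-45891334 (plus) for CTSA, chr17:80101464-80101580 (plus) for GAA, chr16:67481170-67481257 (minus) for ATP6V0D1 and chr3:112561940-112561969 (minus) for ATG3. LAMP1 has copies that begin 29 and 2 bases before its start, MCOLN1 42 and 15 bases before, and GAA 77 and 32 bases before. CTSA has 1 copy that begins 26 bases before the start and ATP6V0D1 1 copy 60 bases before it, while the copy of ATG3 begins at base 5 of the transcript. These starts are those of RefSeq and need not match the GENCODE gene positions given below. The CTSA stretch, for example, lies inside the GENCODE bounds of that gene, chr20:45890144-45898820. A match is a description of letters and not of binding.

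The labelled knockdown was visible in TARDBP itself (chromosome 1). TARDBP was also lower in N352S libraries, for a reason that was not tested. It had 62.3, 63.1 and 67.7 TPM in siTDP-43 libraries against 255.5, 255.6 and 256.3 TPM in siControl libraries, and 122.8 and 122.3 TPM in N352S libraries against 195.5 and 205.4 TPM in wild type libraries, so the groups of each experiment were apart, although a level does not show the substitution itself (limma, log2 fold changes -1.98 and -0.70, adjusted p = 3.8e-08 and 1.9e-05). TPM are shares of a fixed total and keep no read depth, so the depth is unknown, and the number of genes at 1 TPM or above was 16711 to 17398 per library. Of 10 noradrenergic markers, all averaged over 1 TPM, with sums of 5565 to 5765 TPM in siTDP-43, 4883 to 5077 in siControl, 4348 to 4635 in N352S and 4830 to 4905 in wild type libraries. These sums did not overlap in either comparison, and were higher in siTDP-43 and lower in N352S libraries. The 5 macrophage markers, a cell type rich in lysosomes, summed to 1.3 to 2.4 TPM per library, with AIF1 and ITGAM at 0 in all of them. The 5 Schwann cell markers summed to 4.5 to 5.3 TPM in siTDP-43 and 6.2 to 7.4 TPM in siControl libraries, which do not overlap, and to 8.1 to 9.9 TPM in N352S and 9.8 to 11.2 TPM in wild type libraries. The 4 epithelial markers, with KRT5 at 0 throughout, summed to 4.5 and 4.6 TPM in N352S and 1.6 and 2.1 TPM in wild type libraries, which do not overlap, and to 0.8 to 1.4 TPM in the siRNA libraries. The 6 mesenchymal markers summed to 65.2 to 68.6 TPM in siTDP-43 and 62.6 to 65.9 TPM in siControl libraries, which overlap. They summed to 57.8 and 56.4 TPM in N352S and 58 and 69.2 TPM in wild type libraries, which narrowly do not overlap. Transcripts of the mitochondrial genome took 15.5% to 16.2% of the TPM in siTDP-43 libraries and 12% to 14.3% in siControl libraries, and 13.6% to 14.1% in N352S and 14.0% to 14.8% in wild type libraries. The part of these markers in the results below was not tested, and the mitochondrial transcripts were left out of the total as an alternative.

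The 45 genes together made up 0.334% to 0.381% of the TPM of a library. Their summed level was 3440, 3345 and 3393 TPM in siTDP-43 libraries against 3468, 3442 and 3539 TPM in siControl libraries, which narrowly do not overlap. It was 3806 and 3729 TPM in N352S libraries against 3477 and 3467 TPM in wild type libraries, which do not overlap. The most abundant of the 45, GABARAP and PSAP, averaged 406 to 603 TPM in each group, RAB7A 229 to 248 TPM, and the transcription factor TFEB 4.24 to 11.5 TPM.

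**Figure D1:**
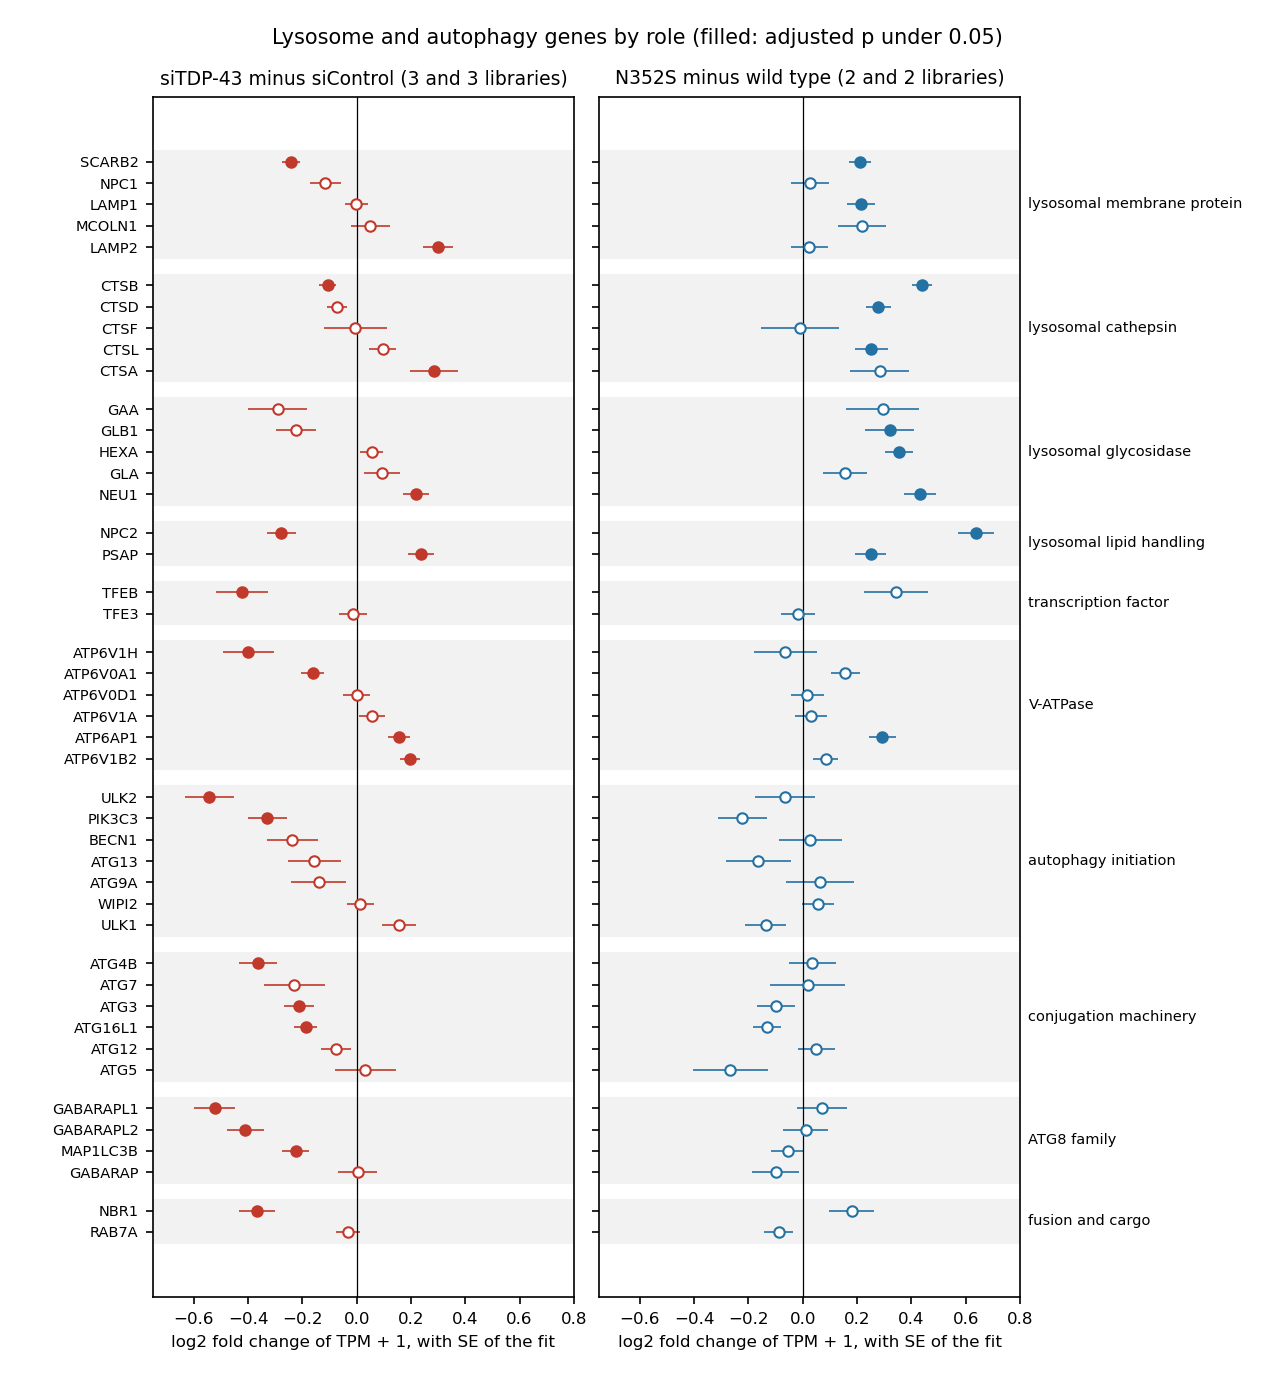
Log2 fold changes of the 44 tested genes, arranged by role, for siTDP-43 over siControl and for N352S over wild type; points are limma estimates on log2(TPM + 1), bars are standard errors, and filled points passed the adjusted threshold. The cathepsins and glycosidases other than CTSF sit to the right of 0 in N352S, where NPC2 reached 0.64, while the autophagy genes that passed after TDP-43 siRNA all sit to the left, down to -0.54; with median-of-ratios scaling or without mitochondrially encoded genes ULK1 also passed, to the right.

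The first comparison asks how these transcripts stand after TDP-43 was depleted by siRNA. Among the autophagy genes, 9 of 19 genes of initiation, conjugation, the ATG8 family, fusion and cargo fell and none rose on TPM as deposited, with ULK2 and GABARAPL1 at 67.5% and 66.9% of their siControl means. The 25 genes of the lysosome and its transcription factors were mixed, with 6 that rose and 6 that fell, with log2 fold changes from -0.42 to 0.30. Over the list, 15 of 44 genes fell (34.1%), where 19.8% of all genes tested fell, and 6 rose (13.6%), where 6.19% of all genes rose. A separate fit of the 12130 genes that averaged at least 5 TPM, as all 44 did, had 26.8% lower and 7.92% higher. In that fit 9 of the 19 autophagy genes were lower, and of the 25 others 7 were lower and 6 higher. The median log2 fold change was -0.09 for the list and -0.08 for all genes tested. Calls are at an adjusted p under 0.05 in limma's moderated test on log2(TPM + 1), with Benjamini-Hochberg adjustment over all 17118 genes, and fold changes on this scale understate those of genes at low levels. Called genes were picked for values by library partly because their groups do not overlap, so a gap between groups adds no support. The share of such genes among all genes was not counted. The split depends on the scaling: with median-of-ratios factors, which move the median of all genes to -0.00, it was 10 higher and 10 lower, where 11.3% of all genes tested were higher and 12.1% lower. With mitochondrially encoded genes left out of the total it was 7 higher and 12 lower, where 7.99% of all genes were higher and 15.3% lower. Of the 19 autophagy genes, 6 were lower and 1, ULK1, higher with median-of-ratios factors, and 8 were lower and ULK1 higher without mitochondrially encoded genes.

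Among the initiation genes, ULK2 (ENSG00000083290, chr17:19770829-19867936 in GRCh38, as for all gene positions here), a kinase that starts autophagosome formation, had 20.7, 21.1 and 21.1 TPM in siTDP-43 libraries against 28.9, 31.2 and 33.0 TPM in siControl libraries. The groups were apart by more than the spread of either, and ULK2 had the largest change of the 44 genes on the log2(TPM + 1) scale, while GABARAPL1 was slightly lower as a share of its siControl mean (limma, log2 fold change -0.54 ± 0.09 SE, adjusted p = 0.0026). PIK3C3 (chr18:41955206-42087830), the lipid kinase that makes the phosphoinositide for nascent membranes, had 53.4, 45.3 and 45.3 TPM in siTDP-43 against 62.4, 57.3 and 61.5 TPM in siControl libraries, again with no overlap (-0.33 ± 0.07 SE, limma adjusted p = 0.011). The paralogue ULK1 did not follow ULK2: it averaged 23.4 ± 1.06 TPM in siTDP-43 and 20.9 ± 0.742 TPM in siControl libraries (SD, n = 3 each), a log2 difference of 0.16 ± 0.06 SE that did not pass (limma adjusted p = 0.099) and that passed in the higher direction when mitochondrially encoded genes were left out or median-of-ratios factors were used. BECN1, the partner of PIK3C3, averaged 53.4 ± 3.68 TPM in siTDP-43 and 63.4 ± 9.64 TPM in siControl libraries (log2 difference -0.24, limma adjusted p = 0.10). With the replicate number as a block, BECN1 passed (adjusted p = 0.017), and it also passed without siControl library 1. The scaffold ATG13, the lipid scramblase ATG9A and the phosphoinositide reader WIPI2 gave log2 differences of -0.16, -0.14 and 0.01 and did not pass. ATG9A passed in the lower direction when N352S library 82, which shares the estimate of the spread, was left out.

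The conjugation machinery contributed 3 genes that fell of 6. ATG4B (chr2:241637213-241673857), the protease that trims ATG8 proteins before they are attached to lipid, had 47.8, 46.6 and 55.1 TPM in siTDP-43 libraries against 62.1, 69.8 and 61.1 TPM in siControl libraries, with no overlap (limma, -0.36 ± 0.07 SE, adjusted p = 0.0057). ATG3, the enzyme that transfers ATG8 proteins to the lipid, averaged 37.1 ± 2.29 TPM in siTDP-43 and 43.2 ± 2.5 TPM in siControl libraries, and ATG16L1, which directs where that happens, 18.1 ± 0.31 and 20.8 ± 0.372 TPM (SD, n = 3 each). Their log2 fold changes were -0.21 and -0.19 (limma adjusted p = 0.024 and 0.012). The call of ATG3 was lost without any one of siTDP-43 libraries 1 and 2 or siControl libraries 1 and 2, with either change of scaling, with no filter and with only the siRNA groups in the fit. The 3 that did not pass were ATG5, ATG7 and ATG12, at log2 differences of 0.03, -0.23 and -0.08. ATG3 shares bases with SLC35A5 on the opposite strand (47.4 TPM in siTDP-43, 51.5 in siControl) and ATG4B with THAP4 (43.7 TPM in siTDP-43, 43.1 in siControl). BECN1 likewise shares bases with PSME3 (140.26 TPM in siTDP-43, 151.31 in siControl) and CTSA with PLTP (34.75 TPM in siTDP-43, 34.62 in siControl). MAP1LC3B does so with FBXO31 (18.52 TPM in siTDP-43, 18.41 in siControl) and NBR1 with RP11-242D8.1 (15.08 TPM in siTDP-43, 16.55 in siControl). Whether the counting used strand is not stated, so reads of such pairs cannot be told apart.

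The ATG8 family, the ubiquitin-like proteins that coat autophagosomes, had 3 of 4 genes lower after TDP-43 siRNA. GABARAPL1 (ENSG00000139112, chr12:10212458-10223130) had 7.41, 7.94 and 8.25 TPM in siTDP-43 libraries against 10.8, 12.6 and 11.8 TPM in siControl libraries (limma, -0.52 ± 0.07 SE, adjusted p = 0.0013). GABARAPL2 (ENSG00000034713, chr16:75566351-75577881) had 106, 106 and 109 TPM in siTDP-43 against 128, 141 and 159 TPM in siControl libraries (-0.41 ± 0.07 SE, limma adjusted p = 0.0029). MAP1LC3B (ENSG00000140941, chr16:87383995-87404779), which encodes the common autophagosome marker LC3B, had 46.4, 48.5 and 46.0 TPM in siTDP-43 against 53.6, 53.9 and 57.7 TPM in siControl libraries (-0.22 ± 0.05 SE, limma adjusted p = 0.0095). In each of these the siTDP-43 libraries all lay below the siControl libraries. The call of MAP1LC3B was lost under median-of-ratios scaling, as was that of ATG16L1. MAP1LC3B has a near-identical copy, MAP1LC3B2, at 6.44 TPM in siTDP-43 and 5.23 TPM in siControl libraries, so its counts are uncertain to that extent. The most abundant member, GABARAP (ENSG00000170296, chr17:7240014-7242770), overlapped between groups, at 561, 496 and 496 TPM in siTDP-43 and 512, 470 and 568 TPM in siControl libraries (0.00 ± 0.07 SE, limma adjusted p = 0.97). GABARAP shares bases on the same strand with a gene listed as CTD-2545G14.7, which averaged 202 TPM in siTDP-43 and 179 TPM in siControl libraries, and how reads were divided between the pair was not tested. Because GABARAP dominates the family, the summed level of the 4 genes was 659 to 720 TPM in siTDP-43 and 678 to 797 TPM in siControl libraries, which overlap.

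Of the fusion and cargo genes, NBR1 (ENSG00000188554, chr17:43170481-43211689), a receptor that links ubiquitinated cargo to ATG8 proteins, had 34.6, 33.7 and 39.6 TPM in siTDP-43 libraries against 44.1, 47.0 and 49.0 TPM in siControl libraries. The groups were apart (limma, -0.37 ± 0.07 SE, adjusted p = 0.0041). RAB7A, a small GTPase of late endosomes, averaged 242 ± 2.14 TPM in siTDP-43 and 248 ± 8.54 TPM in siControl libraries and did not pass.

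The transcription factor TFEB (ENSG00000112561, chr6:41683978-41736259) had 4.26, 4.36 and 4.09 TPM in siTDP-43 libraries against 5.09, 6.72 and 6.36 TPM in siControl libraries. The siTDP-43 libraries were all lower, at 70.0% of the siControl mean (limma, -0.42 ± 0.10 SE, adjusted p = 0.012). TFE3 (ENSG00000068323, chrX:49028726-49043486) overlapped, at 19.4, 17.6 and 19.6 TPM in siTDP-43 and 18.7, 19.2 and 19.3 TPM in siControl libraries (-0.01 ± 0.05 SE). Of the 6 genes with the TCACGTGA element shown above, CTSA rose, ATG3 fell, and LAMP1, MCOLN1, GAA and ATP6V0D1, at log2 differences of -0.00, 0.05, -0.29 and -0.00, did not pass. GAA passed in the lower direction when siControl library 3 was left out.

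**Figure D2:**
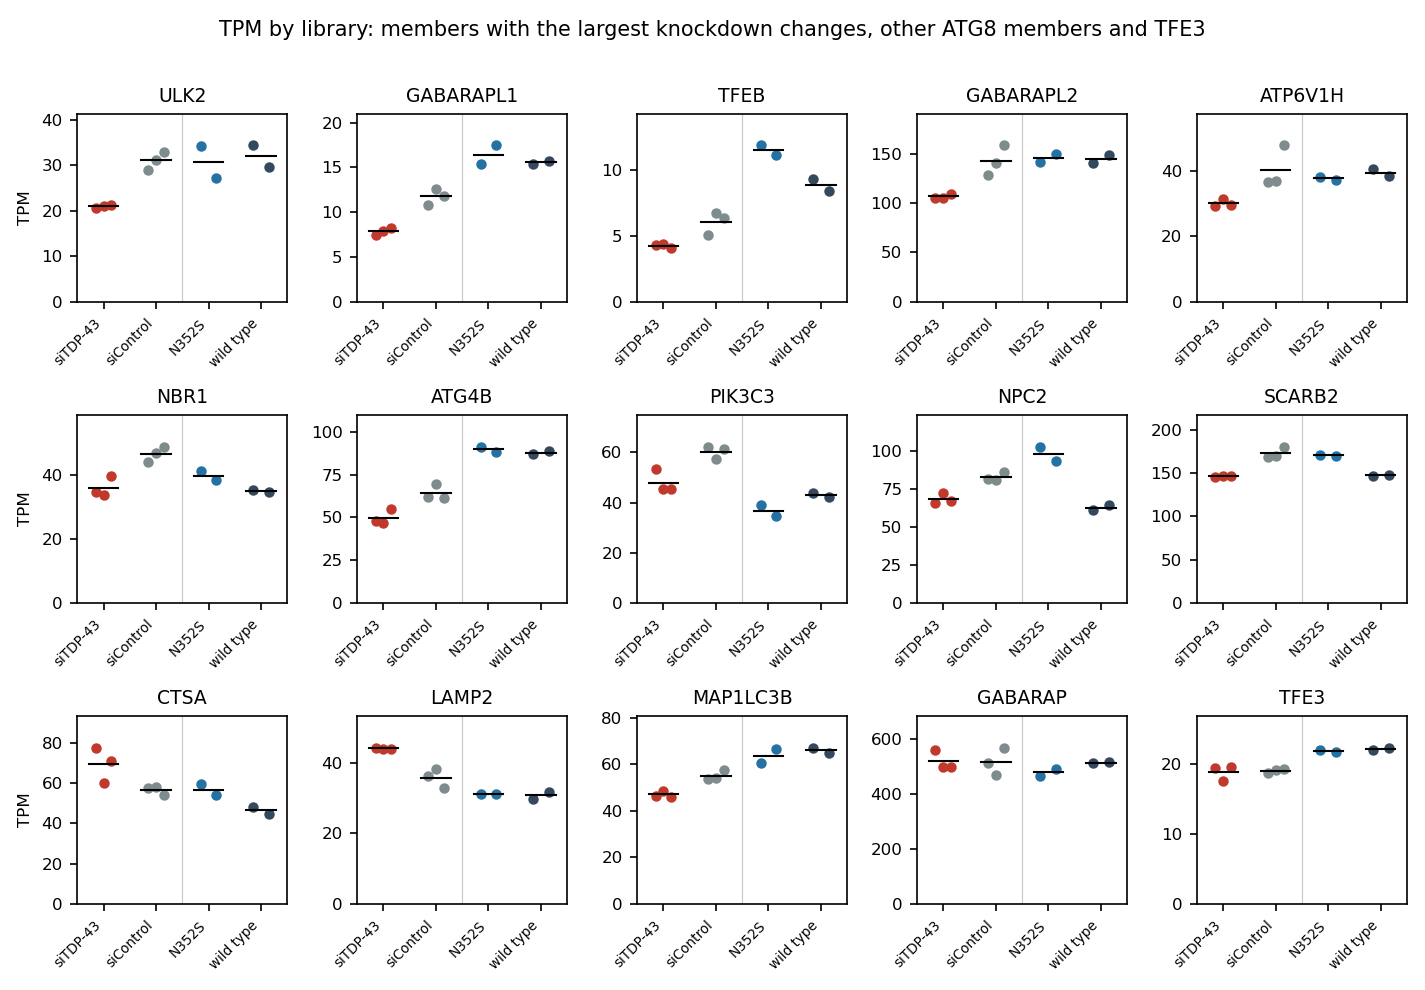
TPM in each of the 10 libraries for the 12 genes with the largest called changes in the knockdown and groups that do not overlap, and for MAP1LC3B, GABARAP and TFE3; points are libraries, bars are group means, and the y axes start at 0. In the siTDP-43 libraries ULK2 sits near 21 TPM, below all siControl libraries, and LAMP2 near 44 TPM, above all of them.

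On the lysosomal side, LAMP2 (ENSG00000005893, chrX:120427827-120469365), a membrane protein that takes part in fusion and in chaperone-mediated autophagy, had 44.2, 44.0 and 43.9 TPM in siTDP-43 libraries against 36.3, 38.1 and 32.7 TPM in siControl libraries. It rose in all libraries beyond the siControl range (limma, 0.30 ± 0.06 SE, adjusted p = 0.0048), while LAMP1 averaged 91.0 TPM in both groups. SCARB2 (chr4:76158733-76234536), the receptor that carries glucocerebrosidase to lysosomes, had 146, 147 and 147 TPM in siTDP-43 against 169, 170 and 181 TPM in siControl libraries and fell (limma, -0.24 ± 0.03 SE, adjusted p = 0.0011). NPC2 (chr14:74476192-74494177), a cholesterol carrier of the lysosome lumen, had 65.8, 72.2 and 66.9 TPM in siTDP-43 against 81.8, 81.1 and 86.1 TPM in siControl libraries and fell (limma, -0.28 ± 0.05 SE, adjusted p = 0.0055). It shares bases with ISCA2 on the opposite strand, at 25.1 TPM in siTDP-43 and 30.9 TPM in siControl libraries. NPC1, the membrane partner to which NPC2 hands cholesterol, and the calcium channel MCOLN1 gave log2 differences of -0.12 and 0.05 and did not pass.

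The hydrolases showed no common direction. CTSA (chr20:45890144-45898820), a carboxypeptidase that also protects NEU1, had 77.8, 60.2 and 70.9 TPM in siTDP-43 against 57.5, 58.3 and 54.2 TPM in siControl libraries (limma, 0.29 ± 0.09 SE, adjusted p = 0.041). The sialidase NEU1 averaged 22.5 ± 1.09 TPM in siTDP-43 and 19.2 ± 0.505 TPM in siControl libraries (SD, n = 3 each) and rose by 0.22 (limma adjusted p = 0.010). PSAP, the precursor of the saposins that help degrade sphingolipids, averaged 479 ± 20.1 TPM in siTDP-43 and 406 ± 23.2 TPM in siControl libraries and rose by 0.24 (limma adjusted p = 0.0064). The cysteine protease CTSB fell by 0.11 on the log2 scale, at 154 ± 1.87 TPM in siTDP-43 and 165 ± 2.29 TPM in siControl libraries (limma adjusted p = 0.032). The galactosidase GLB1, at 59.9 ± 4.74 TPM in siTDP-43 and 70.1 ± 3.53 TPM in siControl libraries, missed the threshold (-0.22, limma adjusted p = 0.053) and passed with the replicate number as a block (adjusted p = 0.036) and without siTDP-43 library 3, N352S library 81 or N352S library 82. CTSD, CTSF, CTSL, GLA and HEXA lay between -0.07 and 0.10 and did not pass, though CTSL and HEXA passed in the higher direction with median-of-ratios scaling. The call of CTSA was lost when siTDP-43 library 1 or 3, any siControl library, or either wild type library was left out, and also with no filter, with only the siRNA groups in the fit and without the variance trend. That of CTSB was lost when any siTDP-43 library or siControl library 2 or 3 was left out, with either change of scaling and without the variance trend.

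The V-ATPase genes were divided. ATP6V1H (chr8:53715557-53843558), a regulatory subunit of the cytosolic domain, had 29.3, 31.5 and 29.7 TPM in siTDP-43 libraries against 36.5, 36.8 and 47.9 TPM in siControl libraries and fell (limma, -0.40 ± 0.09 SE, adjusted p = 0.014). ATP6V0A1, the membrane subunit common in neurons, averaged 43.7 ± 2.03 TPM in siTDP-43 and 49.0 ± 1.52 TPM in siControl libraries and fell by 0.16 (limma adjusted p = 0.023). Higher were ATP6V1B2, a subunit of the catalytic head, at 160 ± 2.86 TPM in siTDP-43 and 139 ± 2.48 TPM in siControl libraries (0.20, limma adjusted p = 0.0053), and the accessory protein ATP6AP1, at 83.3 ± 1.97 and 74.6 ± 3.27 TPM (0.16, limma adjusted p = 0.021). ATP6V1A and ATP6V0D1 gave 0.06 and -0.00 and did not pass, though ATP6V1A passed in the higher direction with median-of-ratios scaling. The call of ATP6V0A1 was lost without siTDP-43 library 1 or 2 or siControl library 1 or 2, with either change of scaling and with only the siRNA groups in the fit, and that of ATP6AP1 without siTDP-43 library 2 or 3 or siControl library 2 or 3.

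The second comparison asks how the same genes stand in cells homozygous for N352S. Here the genes that passed all rose: 11 of 44 genes rose (25%) and 0 fell, where 8.28% of all genes tested rose and 11.9% fell. In a separate fit of genes that averaged at least 5 TPM, 10.2% rose and 15.3% fell, and again 11 of the 44 rose and 0 fell. At an unadjusted p under 0.05 in limma over all genes tested, 15 of the 44 were higher and 2 lower. The 11 were 3 of 5 tested cathepsins, 3 of 5 glycosidases, both lipid handling genes, 2 of 5 membrane proteins and 1 of 6 V-ATPase genes. None of the 19 autophagy genes and neither transcription factor passed. The list's median log2 fold change was 0.05, against -0.03 for all genes tested. The summed level of the 6 cathepsins was 461 and 450 TPM in N352S libraries against 364 and 357 TPM in wild type libraries, and that of the 5 glycosidases 280 and 266 TPM against 224 and 217 TPM in wild type libraries, neither of which overlaps. For the called genes below, groups that do not overlap were again part of the rule for giving values by library.

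NPC2 had the largest change, with 103 and 93.2 TPM in N352S libraries against 60.8 and 64.4 TPM in wild type libraries, or 157% of the wild type mean (limma, log2 fold change 0.64 ± 0.07 SE, adjusted p = 0.00022). Both N352S libraries also lay above the range of the siTDP-43 and siControl libraries. Its opposite-strand neighbour ISCA2 averaged 26.2 TPM in N352S and 26.8 TPM in wild type libraries. PSAP had 612 and 593 TPM in N352S against 505 and 508 TPM in wild type libraries (0.25 ± 0.06 SE, limma adjusted p = 0.016). The groups of both genes were apart. The call of PSAP was lost without N352S library 81 or either wild type library.

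Among the cathepsins, CTSB (ENSG00000164733, chr8:11842524-11869448) had 210 and 204 TPM in N352S libraries against 150 and 156 TPM in wild type libraries (limma, 0.44 ± 0.04 SE, adjusted p = 7.8e-05). CTSD (ENSG00000117984, chr11:1752752-1764573), an aspartic protease, had 134 and 139 TPM in N352S against 116 and 109 TPM in wild type libraries (0.28 ± 0.05 SE, limma adjusted p = 0.0033). CTSL, a cysteine protease, had 36.2 and 38.9 TPM in N352S against 30.4 and 32.3 TPM in wild type libraries (0.25 ± 0.06 SE, limma adjusted p = 0.019). In each the N352S libraries were both above the wild type libraries. CTSD shares bases on the same strand with a gene listed as RP11-295K3.1 (chr11:1734821-1763954), which averaged 57.7 TPM in N352S and 17.6 TPM in wild type libraries, and 2.57 TPM in siTDP-43 and 8.30 TPM in siControl libraries. How reads were divided between that gene and CTSD was not tested. CTSA averaged 56.9 ± 4.08 TPM in N352S and 46.6 ± 2.63 TPM in wild type libraries (SD, n = 2 each) and missed the threshold (0.28, limma adjusted p = 0.097), but passed without siTDP-43 library 2. The call of CTSL was lost without N352S library 82 or wild type library 79 and with only the genotype groups in the fit.

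Among the glycosidases, NEU1 (ENSG00000204386, chr6:31857659-31862906) had 23.6 and 23.6 TPM in N352S libraries against 17.2 and 17.3 TPM in wild type libraries (limma, 0.43 ± 0.06 SE, adjusted p = 0.0012). HEXA (ENSG00000213614, chr15:72340919-72376476), a subunit of the hexosaminidase that degrades gangliosides, had 65.4 and 64.7 TPM in N352S against 51.9 and 49.5 TPM in wild type libraries (0.35 ± 0.05 SE, limma adjusted p = 0.0018). GLB1 had 85.5 and 73.3 TPM in N352S against 61.3 and 65.1 TPM in wild type libraries (0.32 ± 0.09 SE, limma adjusted p = 0.036). The groups did not overlap for any of these. GAA and GLA, at log2 differences of 0.29 and 0.15, did not pass. The call of GLB1 was lost without siTDP-43 library 2, siControl library 2, N352S library 81 or either wild type library. It was also lost with no filter, with only the genotype groups in the fit and without the variance trend.

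**Figure D3:**
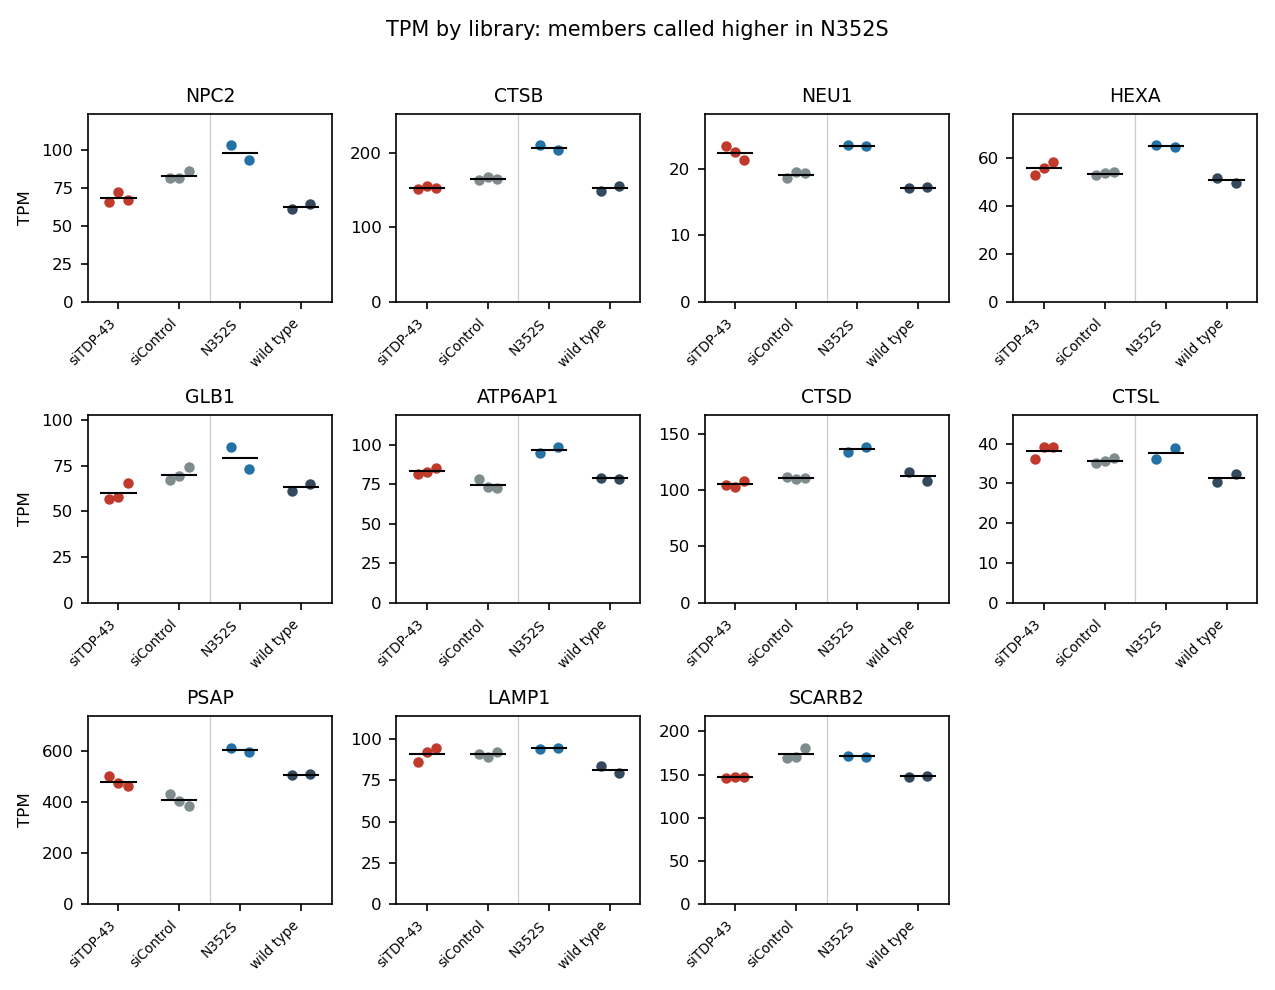
TPM in each of the 10 libraries for the 11 genes that rose in N352S cells; points are libraries, bars are group means, and the y axes start at 0. NPC2 reached 93.2 TPM or more in both N352S libraries and at most 64.4 TPM in wild type libraries.

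LAMP1 had 94.1 and 94.9 TPM in N352S libraries against 83.6 and 79.3 TPM in wild type libraries (limma, 0.21 ± 0.05 SE, adjusted p = 0.019). SCARB2 had 172 and 171 TPM in N352S against 148 and 148 TPM in wild type libraries (0.21 ± 0.04 SE, limma adjusted p = 0.0069). ATP6AP1 had 94.5 and 98.9 TPM in N352S against 79.1 and 78.4 TPM in wild type libraries (0.29 ± 0.05 SE, limma adjusted p = 0.0038). All N352S libraries of these genes lay above both wild type libraries. LAMP2 (31.2 TPM in N352S, 30.7 TPM in wild type), NPC1 and MCOLN1, at log2 differences of 0.02, 0.03 and 0.22, did not pass, nor did the 5 other V-ATPase genes, which lay between -0.06 and 0.16. The call of LAMP1 was lost without either N352S library or wild type library 80, and with only the genotype groups in the fit.

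TFEB had 11.9 and 11.1 TPM in N352S libraries against 9.30 and 8.39 TPM in wild type libraries. Although these do not overlap, the difference missed the threshold (limma, 0.34 ± 0.12 SE, adjusted p = 0.072), and it passed without siControl library 1, with a pseudocount of 5 and with median-of-ratios scaling. TFE3 had 22.0 and 21.7 TPM in N352S and 21.9 and 22.3 TPM in wild type libraries (-0.02 ± 0.06 SE). GABARAPL1 had 15.4 and 17.5 TPM in N352S and 15.4 and 15.7 TPM in wild type libraries, GABARAPL2 142 and 150 TPM in N352S and 141 and 149 TPM in wild type libraries. MAP1LC3B had 60.5 and 66.5 TPM in N352S and 67.1 and 64.9 TPM in wild type libraries. GABARAP had 465 and 492 TPM in N352S and 512 and 514 TPM in wild type libraries, and its same-strand neighbour CTD-2545G14.7 averaged 184 TPM in N352S and 131 TPM in wild type libraries. The 4 ATG8 log2 differences lay between -0.10 and 0.07 and none passed. Over the 19 autophagy genes they ran from -0.27 for ATG5 to 0.18 for NBR1. The log2 difference of ATG9A passed only when N352S library 82 was left out.

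Because the experiments share no control libraries, the difference between the effect of siTDP-43 and that of N352S could be tested in the same fit. It was lower for 15 of 44 genes (34.1%) and higher for 0, where 13.8% of all genes tested were lower and 8.2% higher. In a separate fit of genes that averaged at least 5 TPM, 18% were lower and 10.4% higher, with 15 of the 44 lower and 1 higher. At an unadjusted p under 0.05 in limma over all genes tested, 16 of the 44 were lower and 2 higher. Of the 15, 3 fell after siRNA and rose in N352S, namely NPC2, CTSB and SCARB2. NPC2 gave the largest difference, -0.92 ± 0.08 SE (limma adjusted p = 0.00013), followed by TFEB at -0.77 ± 0.15 SE (0.0072). CTSB gave -0.55 ± 0.05 SE (limma adjusted p = 0.00011) and SCARB2 -0.45 ± 0.05 SE (0.00046). Of the autophagy genes, GABARAPL1, NBR1, ULK2, GABARAPL2 and ATG4B were among the 15, at -0.59, -0.55, -0.48, -0.42 and -0.40. The call of the difference was lost in some alternatives for 6 of the 15, ULK2, GABARAPL2, ATG4B, GAA, HEXA and LAMP1, each of them without at least 1 genotype library. For MAP1LC3B, PIK3C3 and ATP6V1H, which fell after siRNA, the difference did not pass, at -0.17, -0.11 and -0.34. NEU1, PSAP and ATP6AP1 rose in both experiments, and their differences, at -0.21, -0.01 and -0.13, did not pass either. Across the 44 genes the effects had Pearson's r = 0.13, and 22 of 44 had the same sign (50.0%), against r = 0.01 and 52.8% over all genes tested, given as descriptions since genes in 1 set of libraries are not independent.

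**Figure D4:**
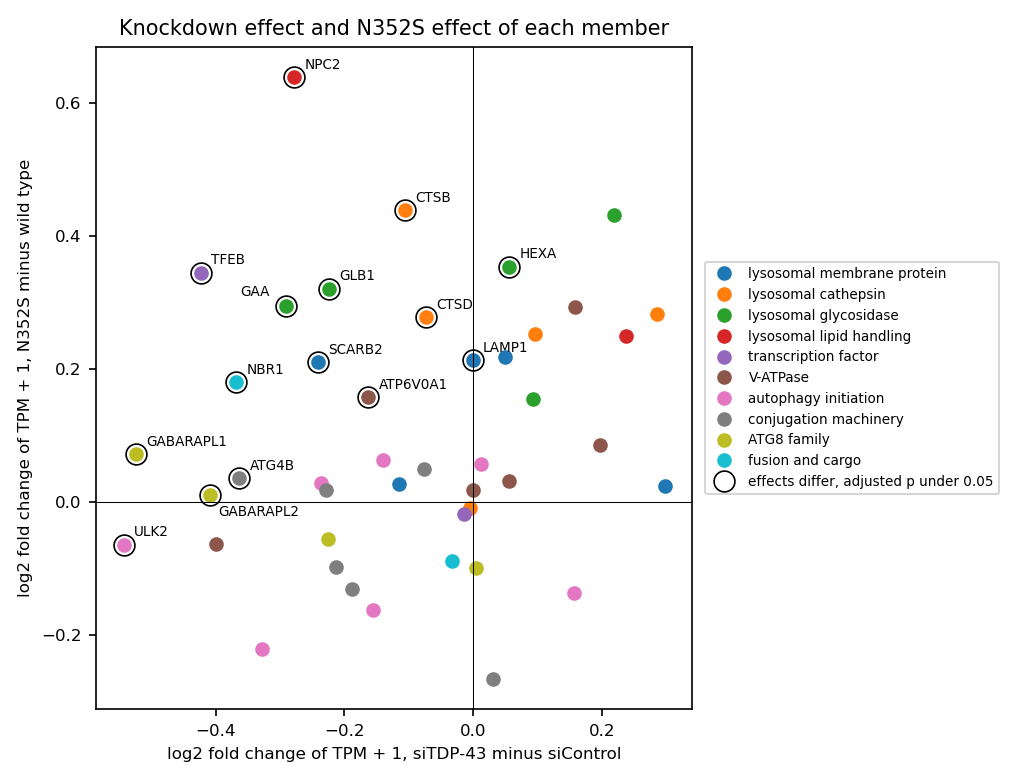
Log2 fold change of each of the 44 tested genes in siTDP-43 over siControl cells (x axis) against N352S over wild type cells (y axis); points are genes coloured by role, and rings mark the 15 whose effects differed at the adjusted threshold. NPC2, CTSB and SCARB2 lie left of 0 and above 0, and GABARAPL1 and ULK2 lie far left near the level of no difference in N352S.

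The levels of the unperturbed groups differed between the experiments for some genes, and these are given side by side with no test. TFEB averaged 6.06 TPM in siControl and 8.85 TPM in wild type libraries, ATG4B 64.3 TPM in siControl and 87.8 TPM in wild type libraries, and PIK3C3 60.4 TPM in siControl and 43 TPM in wild type libraries. SCARB2 averaged 174 TPM in siControl and 148 TPM in wild type libraries, so its N352S mean of 171 TPM was near the siControl level and its siTDP-43 mean of 147 TPM near the wild type level.

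A wider list of 139 other lysosome and autophagy genes, of which 135 were tested, was read in the same fit. After TDP-43 siRNA, 14 rose (10.4%) and 28 fell (20.7%), beside the background shares given above, with a median log2 fold change of -0.05. The receptors for selective autophagy had 8 of 12 lower and 0 higher, which became 6 lower and 1 higher with median-of-ratios scaling. Of these, TAX1BP1, a ubiquitin-binding receptor, averaged 72.8 ± 0.922 TPM in siTDP-43 and 98.9 ± 2.33 TPM in siControl libraries (SD, n = 3 each; limma, -0.44, adjusted p = 3.8e-05). BNIP3L and BNIP3, receptors of mitophagy, averaged 89.5 and 66.1 TPM in siTDP-43 and 119 and 97.5 TPM in siControl libraries (-0.41 and -0.55). OPTN, a receptor gene mutated in familial amyotrophic lateral sclerosis, averaged 13.1 ± 0.166 TPM in siTDP-43 and 17.5 ± 1.23 TPM in siControl libraries (-0.39, limma adjusted p = 0.0012). Of the autophagy core genes, 4 of 21 fell and 2 rose, among them WDR45 (-0.38) and the scramblase TMEM41B (-0.56), both lower, and WDR45B (0.20), higher. STX17, the SNARE of autophagosome fusion, fell to 12.8 ± 0.162 TPM in siTDP-43 libraries, against 18.6 ± 1.47 TPM in siControl libraries (limma, -0.50, adjusted p = 0.00086), and the sorting receptor SORT1 fell by 0.35.

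Of 32 further hydrolases and activators tested, 6 rose and 3 fell after siRNA. The lipase LIPA averaged 36.4 ± 1.35 TPM in siTDP-43 and 25.8 ± 1.35 TPM in siControl libraries (limma, 0.48, adjusted p = 0.00065). Progranulin, encoded by GRN, averaged 170 ± 6.02 TPM in siTDP-43 and 126 ± 8.56 TPM in siControl libraries (0.43, limma adjusted p = 0.00077), and CTSK averaged 6.21 ± 0.66 TPM in siTDP-43 and 11.9 ± 1.15 TPM in siControl libraries (-0.83, limma adjusted p = 0.0013). The chloride transporter CLCN7 and its partner OSTM1 both rose, by 0.30 and 0.49, while HGSNAT, an acetyltransferase of heparan sulphate breakdown, fell by 0.28. In N352S cells 17 of the 135 rose (12.6%) and 9 fell (6.67%), with a median of 0.01. There, 9 of the 32 hydrolases rose and 1 fell: NAGLU averaged 32.6 ± 1.48 TPM in N352S and 22.8 ± 1.22 TPM in wild type libraries (SD, n = 2 each; limma, 0.50, adjusted p = 0.0012), and the sulphatase ARSB rose by 0.53. The membrane genes LAPTM4A and CD63 rose by 0.48 and 0.31, and OPTN, CALCOCO2, TEX264 and MAP1LC3A, which all fell after siRNA, rose by 0.56, 0.26, 0.31 and 0.27. Of these, OPTN kept both calls in all 19 alternatives. The N352S calls of TEX264 and MAP1LC3A were lost without any 1 of the 4 genotype libraries and with no filter. That of CALCOCO2 was lost without either N352S library or wild type library 79 and with only the genotype groups in the fit. That of MAP1LC3A was also lost with the replicate block and without siTDP-43 library 3 or siControl library 1 or 2. With only the genotype groups in the fit and without the variance trend, MAP1LC3A lost it too. The siRNA calls of CALCOCO2 and MAP1LC3A were lost with median-of-ratios scaling, and that of CALCOCO2 without siTDP-43 library 1. GRN rose in N352S as well, by 0.30, a call lost without N352S library 81 or wild type library 80, and that of CD63 was lost without wild type library 79. Of the genes that fell, MTOR, the kinase that restrains autophagy, averaged 20.1 ± 1.54 TPM in N352S and 33.8 ± 0.926 TPM in wild type libraries (limma, -0.72, adjusted p = 0.00046). MTOR lies on chromosome 1 close to TARDBP, while none of the 45 genes lies on that chromosome. Without N352S library 81 or 82 only 9 of the 135 rose in N352S, and without wild type library 79 or 80 only 8. Without N352S library 82, wild type library 79 or wild type library 80, 5, 1 and 5 fell. The count of hydrolases that rose in N352S was 5 without N352S library 82 or wild type library 79 and 4 without wild type library 80.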

How the data were processed

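Per the submitters' processing notes, reads were handled with STAR and RSEM on hg38; their versions, the annotation and the strand setting: not given in the sources used here. Cells were lysed in Trizol and RNA libraries made with an Illumina TruSeq kit, per the labels' protocols. The authors deposited 1 table of TPM per gene and library with 2 decimals, and every column of values was matched to a sample (0 were not). TPM correct for length and total, and keep no depth.

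From that table, log2(TPM + 1) was fitted with limma 3.58.1 (R 4.3.3; eBayes with trend) over all 10 libraries as 4 group means, which left 6 residual degrees of freedom, for genes whose 10 libraries averaged 1 TPM or more. P-values were Benjamini-Hochberg adjusted over all genes tested and called below 0.05. The code was tested on simulated data. Members and lists were chosen with earlier results of these data known. Values in every library were given for the ATG8 family, TFEB, TFE3 and, per comparison, the 12 called genes with the largest change and groups that do not overlap. Of other pathway genes, up to 3 per role and comparison with the smallest adjusted p were eligible to be named, and 1 of these is not reported here. Coordinates and overlaps come from GENCODE annotation of GRCh38, which matched 57836 of 58174 gene IDs (99.4%), and figures were drawn with matplotlib 3.10.9 (Python 3.11.15).

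Libraries of siTDP-43 and siControl with the same replicate number deviated together from their group means (r = 0.34, 0.14 and 0.20). Libraries with differing numbers gave r from -0.27 to 0.09. The labels do not say whether the numbers mark pairs. The main fit, which gave the p-values above unless stated otherwise, took no pairing, and the replicate number as a block was an alternative. The genotype libraries share no numbers. Further alternatives were the pseudocount, the filter, the scaling, the mitochondrially encoded genes, the groups in the fit, the variance trend and leaving out each library.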

Additional observations from a re-analysis of the deposited data

Results flagged for a closer look

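For 15 genes the effect of siTDP-43 over siControl differed from the effect of N352S over wild type in limma's test of the difference itself, at an adjusted p under 0.05 over all genes tested. On the log2 scale, siTDP-43 effect minus N352S effect, the values were -0.92 for NPC2, -0.77 for TFEB, -0.59 for GABARAPL1, -0.58 for GAA, -0.55 for CTSB, -0.55 for NBR1, -0.54 for GLB1, -0.48 for ULK2, -0.45 for SCARB2, -0.42 for GABARAPL2, -0.40 for ATG4B, -0.35 for CTSD, -0.32 for ATP6V0A1, -0.30 for HEXA and -0.21 for LAMP1. All 15 were negative. The experiments also differ in handling and in the origin of their cells, which cannot be told apart from the kind of perturbation. For 9 of the 15 the call was kept in each of the 18 alternatives that could be fitted: NPC2, TFEB, GABARAPL1, CTSB, NBR1, GLB1, SCARB2, CTSD and ATP6V0A1.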

How the results depend on the processing

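Of the 21 genes called in the knockdown, 14 kept their call in all 19 alternatives, as did 7 of the 11 called in N352S cells, and no called gene changed direction. In the knockdown, leaving out each library gave 4 to 6 genes higher and 12 to 17 lower, where 3.91% to 6.26% of all genes were higher and 14.6% to 20% lower. The replicate block gave 6 higher and 17 lower, where 6.08% of all genes were higher and 19% lower. The block gained BECN1 and GLB1 and, for the difference of the effects, gave 13 lower genes and lost LAMP1 and ULK2. With median-of-ratios scaling, 10 genes were higher and 10 lower in the knockdown, and of the 135 other pathway genes 22 were higher and 15 lower, where 11.3% of all genes were higher and 12.1% lower. In N352S cells the number of the 44 genes higher was 10 to 12 when an siRNA library was left out, where 7.47% to 9.08% of all genes were higher. It was 8 to 13 under the alternatives that kept all libraries, where 3.53% to 10.4% of all genes were higher, with 0 of the 44 lower in each. For the difference of the effects, 1 gene was higher with a mean of at least 5 TPM, 2 with median-of-ratios scaling and 2 without mitochondrially encoded genes, and leaving out a library gave 0 to 1 higher and 10 to 13 lower. Of the other pathway genes, 10 were higher in N352S with no filter, and 9 higher and 2 lower with only the compared groups in the fit. Leaving out a library gave 8 to 19 higher and 1 to 9 lower. For their difference of effects, 5 were higher with no filter, and leaving out a library gave 5 to 8 higher and 16 to 28 lower, the lowest without wild type library 80. Over all genes, the difference of effects was higher for 3.23% to 10.9% and lower for 5.06% to 18% under the alternatives that kept all libraries. Without an siRNA library it was higher for 6.16% to 8.51% and lower for 11.4% to 13.2%. Without a genotype library its all-gene median was -0.05 to -0.03, and that of N352S -0.05 to -0.02. In N352S, 3.53% were higher with no filter, and 5.26% higher and 5.78% lower with only the compared groups. The cause of these shifts was not tested. The difference of effects cannot be fitted with only 1 pair of groups. With 2 libraries in each genotype group, leaving 1 out assumes that the other varies like the rest, and the unknown depth sets a limit for CTSZ and other genes near 1 TPM.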

Other observations

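The share of promoters with an E-box was also read for the genes outside the list. The shorter core CACGTG was found in 26 of 108 other pathway genes (24.1%), beside 9 of the 38 listed genes with a promoter (23.7%), and TCACGTGA in CLN3, RRAGB and NAGPA among others. NAGPA, the enzyme that uncovers the mannose 6-phosphate tag of hydrolases, averaged 6.0 ± 0.679 TPM in N352S and 9.16 ± 0.375 TPM in wild type libraries (SD, n = 2 each; limma, log2 fold change -0.54, adjusted p = 0.014). M6PR, a receptor for that tag, was lower in both experiments, at -0.18 in each (limma adjusted p = 0.012 after TDP-43 siRNA and 0.037 in N352S), and RPTOR, a subunit of the MTOR complex on the lysosome, was lower in both as well, at -0.26 and -0.27. With median-of-ratios scaling M6PR lost its call in both experiments. In N352S its call was lost in 11 of 19 alternatives, among them the replicate block and leaving out any 1 of the 4 genotype libraries, siTDP-43 library 1 or siTDP-43 library 3. The N352S call of RPTOR was lost without N352S library 81 or wild type library 79, and that of NAGPA without N352S library 81 or either wild type library. With only the genotype groups in the fit, both were lost.

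The genomic span of the 45 genes had a median of 29.5 kb, and that of protein-coding genes 27.1 kb. Across the 44 tested genes, longer span went with a lower log2 fold change in both experiments (Spearman's rho -0.34 in the knockdown and -0.36 in N352S), given as a description, since the genes share libraries.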
